A study of Mus musculus with 9 samples.

Results

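Glycolysis breaks glucose down to pyruvate and lactate, and several of its enzymes exist as isoforms made by separate genes, one enriched in skeletal muscle and another found in most tissues. Expression of these isoform genes was compared between tumours of 5 mouse samples and normal skeletal muscle of 4, with 1 Affymetrix array each. Of 10 genes named for this purpose, 7 had at least 1 probe set with a single gene symbol in the table held: Hk1, Hk2, Pfkm, Pfkl, Pfkp, Pgam1 and Ldha, with 11 probe sets, out of 14440 genes and 25581 such probe sets in all. Eno1, Eno3 and Pgam2, the enolase genes and the muscle phosphoglycerate mutase gene, had none and were not analysed here, so enolase and phosphoglycerate mutase could not be compared as pairs.

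The tumours came from mice labelled MYF-5 CRE/SSM2, in a series titled as a SYT-SSX model of synovial sarcoma, a soft tissue cancer driven by the SYT-SSX fusion. Myf5, the gene named in the Cre label, is active in muscle precursors and marks the lineage in which Cre is made. Tumour 1 carried the label CC23, tumours 2 and 3 the labels CC17-B and CC17-A, which may be 1 animal, tumour 4 the label SSM5 and tumour 5 the label SSM4. The muscles, titled wild type, were hind limb (muscle 1), intercostal (muscle 2), forelimb (muscle 3) and a further hind limb sample (muscle 4). Genotype and tissue therefore differ together in every comparison. Strain, age and sex are not given in the sources used here, and p-values measure the spread between samples, since no label says that each came from a separate animal.

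Hexokinases trap glucose in the cell as glucose 6-phosphate. Hk2 encodes the insulin-responsive hexokinase of muscle and fat and Hk1 the form of most tissues. Phosphofructokinase commits sugar to glycolysis, and Pfkm, Pfkl and Pfkp encode its muscle, liver and platelet subunits, which mix in tetramers. Pgam1 encodes the widely expressed phosphoglycerate mutase, and Ldha the lactate dehydrogenase subunit that dominates in skeletal muscle and favours lactate production. Hk2 and Ldha are also known to be high in many tumours, where they are targets of hypoxia-inducible factors and MYC.

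Levels are scaled intensities, which are array signals brought to 1 common trimmed mean. Signals of different genes cannot be set against each other, because their probes differ. The floor of an array, the 40th percentile of its values, ran from 96.5 to 137 scaled intensity, and only genes at or above it on 4 or more arrays were tested. Marker genes went with the labels of both tissues. Their lists were chosen with earlier results of these data known, so this is not an independent check. All 12 muscle fibre markers in the table were above the floor on every muscle array. All 6 synovial sarcoma markers and all 4 markers of dividing cells in the table were higher in tumours by limma (adjusted p under 0.05). Of all genes tested, 30.1% were. Sox2 and Bub1b lay below the floor on every muscle array and passed the filter through the tumours alone. Their limma results rest on muscle values under the floor and add no support. Ss18, the mouse gene of the fusion partner SYT, measured 4015 ± 831 in tumours (SD, n = 5) and 1748 ± 159 in muscle (SD, n = 4), and the fusion transcript itself was not analysed here. Myf5 lay below the floor in every tumour and was at least 2.78-fold lower than in muscle. Muscle 2 stood apart from the limb muscles, as described with the results it touches.

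The sequences upstream of the start site are shown for the members in which the 5 bases ACGTG were found, a form of the core of the element that hypoxia-inducible factors bind and, within CACGTG, of the E-box that MYC binds. For Ldha and Pfkm, which have several windows in the table, the first along the chromosome is shown. Sequences are from RefSeq, build GRCm38.p6, 250 bases ending just before the start, written 5′ to 3′ on the strand of the gene, with ACGTG on either strand in capitals.
Hk2, chr6:82774455-82774704, minus strand: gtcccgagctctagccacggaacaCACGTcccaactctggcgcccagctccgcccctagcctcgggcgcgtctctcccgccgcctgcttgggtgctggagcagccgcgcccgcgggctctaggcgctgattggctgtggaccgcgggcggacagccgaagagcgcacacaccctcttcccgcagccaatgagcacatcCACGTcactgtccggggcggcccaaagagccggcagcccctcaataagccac
Pfkm, chr15:98092339-98092588, plus strand: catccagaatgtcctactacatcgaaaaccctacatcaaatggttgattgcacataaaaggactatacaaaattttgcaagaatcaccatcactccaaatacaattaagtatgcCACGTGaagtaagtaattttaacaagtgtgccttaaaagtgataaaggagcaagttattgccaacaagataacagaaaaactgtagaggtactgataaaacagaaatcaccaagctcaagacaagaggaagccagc
Ldha, chr7:46845554-46845803, plus strand: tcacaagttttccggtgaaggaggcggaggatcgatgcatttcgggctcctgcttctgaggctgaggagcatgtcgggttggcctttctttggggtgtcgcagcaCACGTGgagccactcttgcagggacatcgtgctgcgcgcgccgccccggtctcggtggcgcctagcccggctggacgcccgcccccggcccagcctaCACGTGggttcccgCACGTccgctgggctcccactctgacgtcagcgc
Pgam1, chr19:41911621-41911870, plus strand: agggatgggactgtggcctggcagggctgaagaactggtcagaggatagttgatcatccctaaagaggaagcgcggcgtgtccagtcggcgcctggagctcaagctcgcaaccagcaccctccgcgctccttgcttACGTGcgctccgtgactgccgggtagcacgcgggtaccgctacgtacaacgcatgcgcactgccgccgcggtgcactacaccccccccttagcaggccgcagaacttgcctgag
RefSeq entries were found for all 7 genes, with 12 windows. The Ldha window held 3 separate stretches, 2 of them CACGTG, where overlapping matches on both strands are 1 stretch. Hk2 held 2 stretches, and Pfkm and Pgam1 held 1 each, the Pfkm one being CACGTG. A second Pfkm window also held 1. The other 2 Pfkm windows, the second Ldha window and the windows of Hk1, Pfkl and Pfkp held none, so 5 of 12 windows held ACGTG. Of 32851 windows of the same length, 16.6% held ACGTG and 6.02% held CACGTG. A match is a description of these letters, not of binding. The genes without a match lie at chr10:62268855-62379920 (Hk1), chr10:77986947-78009807 (Pfkl) and chr13:6579874-6649060 (Pfkp) in the same build, and positions of the probes were not used here.

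The question was whether the muscle and the widespread isoform of an enzyme changed alike between muscle and tumour. They did not for hexokinase and phosphofructokinase: Hk2 and Pfkm fell by 3.95 and 3.89 on the log2 scale, while Hk1 rose by 1.30. Ldha fell by 2.61 and Pgam1 rose by 2.28. Of the 7 members, 3 were called higher in tumours, 3 lower, and Pfkp was not called. By the same limma fit, 48.0% of all 10650 genes tested passed, 30.1% as higher and 17.9% as lower in tumours. Over all probe sets the passing share was 42.2%. The share of higher calls among all calls was 62.6%, but 52.1% with each array centred on its median and 75.3% when ribosomal protein and proteasome genes served for centring. All genes tested had a median log2 fold change of 0.23, which became 0.04 and 0.50 under those centrings. The tumours lay wholly below the muscles for 3 members and wholly above for 2, where 15.1% and 25.2% of all genes tested did so, 40.3% together.

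**Figure D1:**
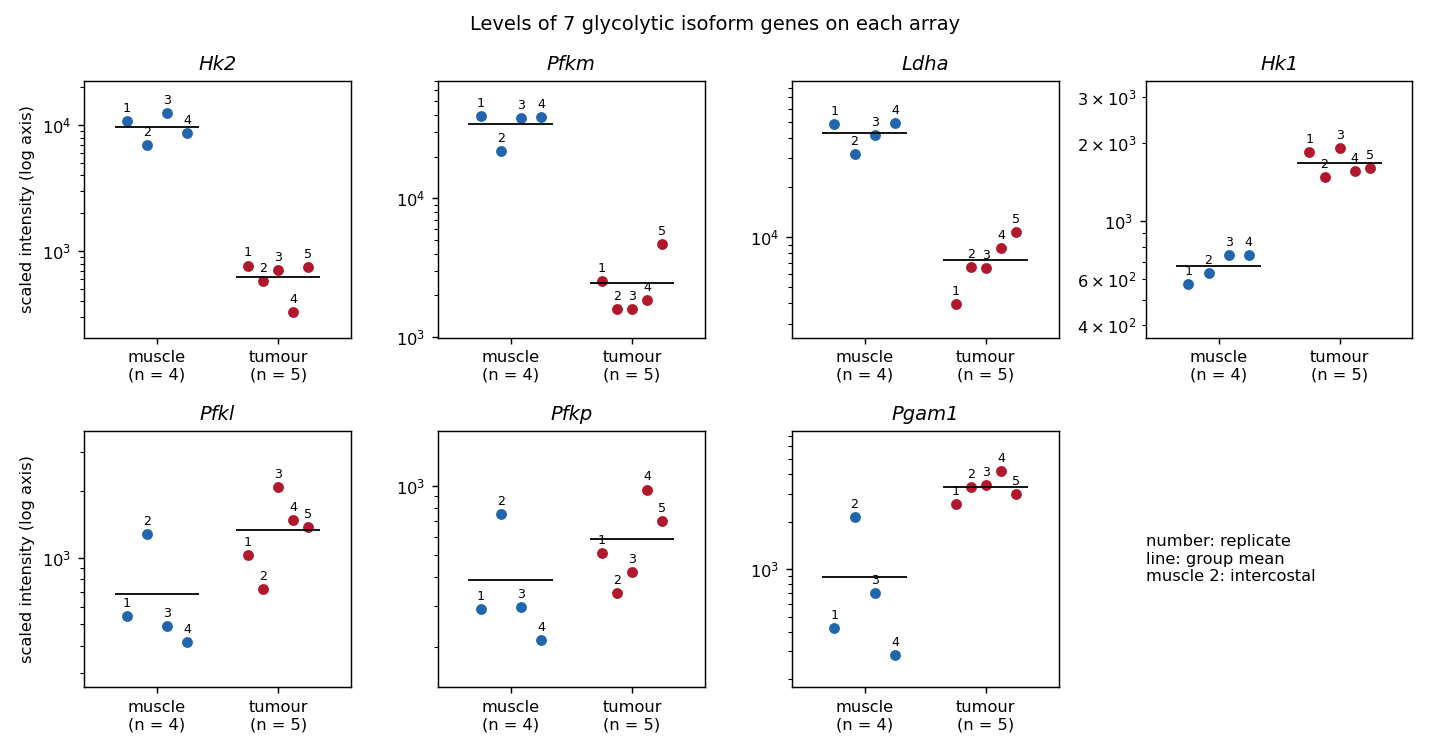
Scaled intensity (log axis) of the 7 genes on each of the 4 muscle (blue) and 5 tumour (red) arrays, numbered by replicate, with the group mean as a line. Hk2, Pfkm and Ldha lie lower in every tumour than in any muscle, Hk1 and Pgam1 lie higher, and the groups overlap for Pfkl and Pfkp, where muscle 2 is the highest muscle.

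Hk2 stood at 10771, 6997, 12471 and 8760 in muscles 1 to 4. In tumours 1 to 5 it was at 771, 579, 710, 330 and 746. The highest tumour held 7.91% of the muscle mean, and tumour 4 was the lowest array. The log2 fold change was −3.95 (SE 0.28, adjusted p = 4.8e-06, limma).

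Hk1, by its brightest probe set (1437974_a_at), was at 572, 636, 739 and 745 in muscles 1 to 4. It was at 1839, 1483, 1917, 1564 and 1598 in tumours 1 to 5. Both groups were tight, every tumour lay above every muscle, and the log2 fold change was 1.30 (SE 0.17, adjusted p = 0.00014, limma). A second, dim Hk1 probe set (1420901_a_at) was under the floor on 3 of the 4 muscle arrays. It was also under the floor in tumour 1, at 48.0, which was lower than in any muscle. The groups overlapped, and the log2 fold change of this probe set was 1.02 (adjusted p = 0.101, limma over probe sets).

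Pfkm was at 38955, 21910, 37926 and 38350 in muscles 1 to 4. It was at 2542, 1587, 1589, 1863 and 4690 in tumours 1 to 5. The 3 limb muscles lay close together and muscle 2 was lower, while tumour 5 was the highest tumour. The groups did not overlap, and the log2 fold change was −3.89 (SE 0.33, adjusted p = 1.2e-05, limma).

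Pfkl (1439148_a_at) was at 543, 1282, 493 and 414 in muscles 1 to 4. It was at 1030, 721, 2081, 1477 and 1381 in tumours 1 to 5. Muscle 2 lay above 2 of the tumours, so the groups overlapped, and the other muscles lay below all tumours. The log2 fold change was 1.02 (SE 0.37, adjusted p = 0.0402, limma). This call was not stable. It ended without muscle 1, 3 or 4 or tumour 3, 4 or 5, with adjusted p from 0.0659 to 0.120 in those fits, and was kept without muscle 2 (1.36, adjusted p = 0.00581). It also ended on values as deposited (adjusted p = 0.0652), with median centring (adjusted p = 0.0732) and with quantile normalization (adjusted p = 0.0783). The other Pfkl probe sets were not called, with log2 fold changes of 0.63 for 1450269_a_at (adjusted p = 0.155) and −0.18 for 1453541_at (adjusted p = 0.793), the latter dim.

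Pfkp (1416069_at) was at 292, 755, 297 and 213 in muscles 1 to 4. It was at 510, 342, 422, 963 and 701 in tumours 1 to 5. Muscle 2 was above every tumour but tumour 4, and the other muscles were below all tumours. The log2 fold change was 0.65 (95% interval −0.20 to 1.50, adjusted p = 0.190, limma), and without muscle 2 it was 1.01 (adjusted p = 0.0305). Its other probe set was near the floor and was not tested.

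Pgam1 was at 422, 2139, 708 and 284 in muscles 1 to 4. It was at 2590, 3314, 3409, 4188 and 2981 in tumours 1 to 5. Every tumour was above every muscle, and muscle 2 came closest to them. Muscle 2 carried the muscle mean, which was 889 with it and 472 ± 216 (SD, n = 3) without it. The log2 fold change was 2.28 (SE 0.46, adjusted p = 0.00203, limma), or 2.84 without muscle 2.

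Ldha was at 48426, 31781, 41719 and 48871 in muscles 1 to 4. It was at 3955, 6608, 6491, 8556 and 10713 in tumours 1 to 5. The groups were far apart, with muscle 2 the lowest muscle and tumour 1 the lowest tumour. The log2 fold change was −2.61 (SE 0.28, adjusted p = 4.1e-05, limma).

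The change of each muscle isoform was then set against that of its partner within each array, which removes the scaling of the array. The quantity is the log2 level of the muscle isoform minus that of the partner, with the mean of the muscle arrays set to 0. For Hk2 over Hk1 the tumours stood at −5.04, −5.13, −5.21, −5.99 and −4.88, and the muscles between −0.37 and 0.40. For Pfkm over Pfkl the tumours stood between −6.11 and −3.97, and the muscles at 0.40, −1.65, 0.50 and 0.75. For Pfkm over Pfkp the tumours stood between −5.59 and −3.82, and the muscles at 0.45, −1.70, 0.39 and 0.86. In the 3 pairs, every tumour lay below every muscle, and muscle 2 was the lowest muscle. Of single genes tested, 40.3% did not overlap between the groups, and no such share was computed for other gene pairs.

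The mean differences between tumour and muscle were −5.25 for Hk2 over Hk1, −4.90 for Pfkm over Pfkl and −4.54 for Pfkm over Pfkp. Their SDs were 0.43, 0.85 and 0.66 over the 5 tumours and 0.38, 1.11 and 1.15 over the 4 muscles. Each gave p = 0.0159 in an exact permutation test over all splits of the arrays, two-sided, which is the smallest p this design allows. After Benjamini-Hochberg adjustment over the 3 pairs the exact p stayed 0.0159. Hk2 and Pfkm by themselves lay lower in every tumour than in any muscle, and the members were chosen with earlier results known. The p-values of the pairs therefore add no support beyond the falls of Hk2 and Pfkm. A difference of −5.25 is a 38.1-fold shift in the ratio, and Pfkm is shared by both phosphofructokinase pairs, so these are not independent. With the second Pfkl probe set (1450269_a_at), above the floor on every array, the difference of Pfkm over Pfkl was −4.52. The remaining partner probe sets were below the floor on several arrays and give no usable difference. These values show unequal change of the isoforms and not their relative amounts.

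**Figure D2:**
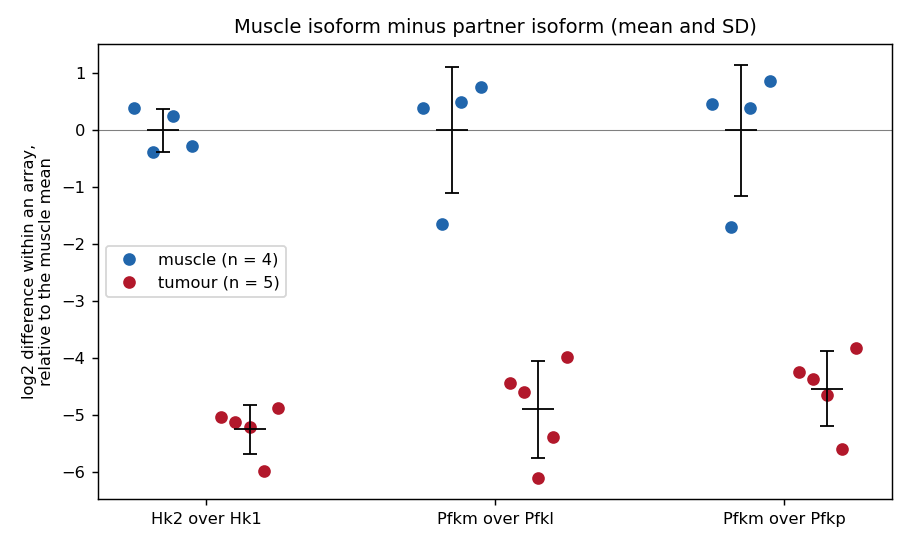
Log2 level of the muscle isoform minus that of its partner on each array, relative to the muscle mean, for 4 muscle (blue) and 5 tumour (red) arrays, with the mean and SD as bars. All tumours lie between −6.11 and −3.82, below every muscle, and muscle 2 is the low blue point at −1.65 and −1.70 in the phosphofructokinase pairs.

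Muscle fibre transcripts were lower in tumours as well. Of 14 fibre markers, 12 were in the table. By limma 11 of these were lower in tumours, beside 17.9% of all genes tested, and 1, Myh1, was not called. The summed level of the 12 markers ran from 529415 to 731307 scaled intensity in muscle and from 560 to 139778 in tumours. Tumours 1 and 5 held 17.3% and 21.0% of the muscle mean of that sum, and tumours 2 and 3 held 6.44% and 1.03%. Tumour 4, where all 12 markers lay below the floor, held 0.0840%. Bright genes weigh most in such a sum. In tumour 1 most of it came from Myh1 and Tnnc2, at 89.6% and 53.0% of their muscle means. Ckm was at 5.65% and Myh4 at 0.162% there, and the sum of 4 fast fibre markers at 5.82%. In whole tissue, fewer fibres and less RNA per fibre cannot be told apart.

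Tumours 1 and 5, highest in the marker sum, were also the highest for Pfkm and Hk2, and tumour 4, lowest in the sum, was the lowest for Hk2. The rest of the order differed. Pfkm was higher in tumour 4 (1863) than in tumours 2 and 3 (1587 and 1589). Hk2 was higher in tumour 3 (710) than in tumour 2 (579). Ldha also had another order, and the members spanned a narrower range than the markers. In tumour 4, all 12 fibre markers lay below the floor of 96.5, while Pfkm was at 5.44%, Hk2 at 3.38% and Ldha at 20.0% of the muscle mean, each above the floor. Ldha was lowest in tumour 1, at 9.26%, and highest in tumour 5, at 25.1%. Pfkm ran from 4.63% in tumour 2 to 13.7% in tumour 5, and Hk2 reached at most 7.91%, in tumour 1. Without tumours 1 and 5, highest in the marker sum, the log2 fold changes were −4.17 for Hk2, −4.30 for Pfkm and −2.55 for Ldha. With all tumours they were −3.95, −3.89 and −2.61 in turn. Tumours 2 and 3, which may be 1 animal, remained in that fit. The part of fibre content in these falls was not tested.

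**Figure D3:**
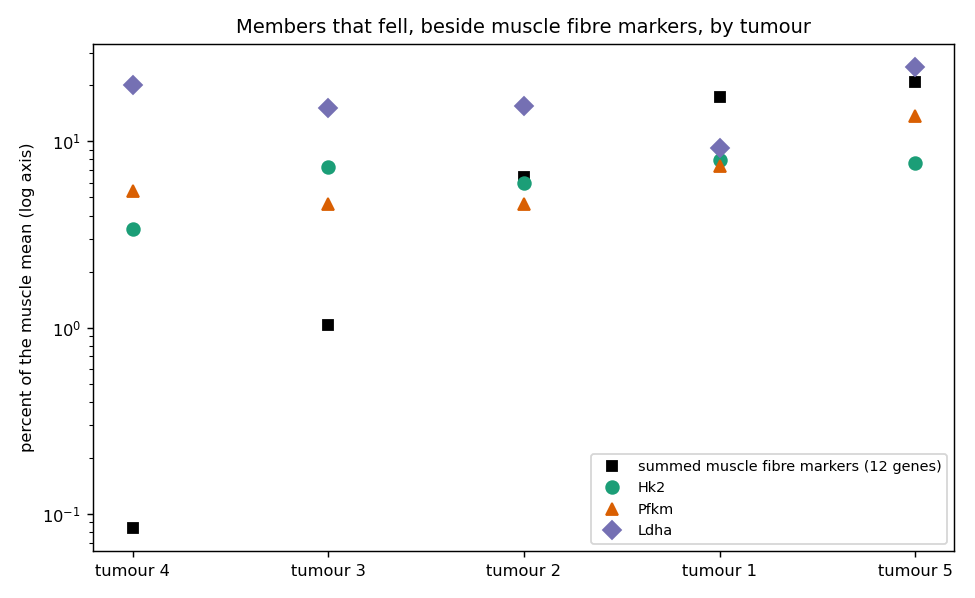
Hk2, Pfkm, Ldha and the summed level of 12 muscle fibre markers in each tumour, as a percent of the muscle mean (log axis), with tumours placed in order of the marker sum. The markers span 0.0840% to 21.0%, and the 3 genes stay between 3.38% and 25.1%. The lowest marker sum, in tumour 4, is made of 12 values below the floor and is not a measured level.

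The intercostal sample, muscle 2, differed from the 3 limb muscles in the same members. Its Pfkm was 0.570 times, its Hk2 0.656 times and its Ldha 0.686 times the limb mean, while its Pgam1 was 4.54 times, its Pfkp 2.83 times and its Pfkl 2.65 times that mean. Hk1 was at 0.928 times. Ldhb, the heart-type lactate dehydrogenase subunit, was at 11662 in muscle 2 and from 3514 to 4328 in the limb muscles. As 1 sample, muscle 2 allows no test. The summed level of 3 slow fibre markers (Tnnt1, Tnni1 and Tnnc1, the slow and cardiac troponins) was 22299 in muscle 2 and 5139 to 12750 in the limb muscles. The summed level of 5 adipocyte markers was 127060 against 29344 to 36839. The part of either in these values was not tested. In tumours the adipocyte sum ran from 782 to 35849. By limma 0 of 4 tested adipocyte markers were called (adjusted p from 0.0530 to 0.209), beside 48.0% of all genes tested. Of these markers, 2 had an unadjusted limma p under 0.05.

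The other genes of glycolysis came from a list of the pathway, drawn up with earlier results of these data known. Of its genes, 17 were in the table and 14 were tested, and 1 was higher, 7 were lower and 6 were not called, beside 48.0% called over all genes. Their median log2 fold change was −0.91, against 0.23 for all genes tested. The list median lay 1.14 below that of all genes as reported, and 0.838 below it with quantile normalization.

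Of the genes called lower, 4 encode enzymes of the main path. Aldoa, the aldolase of muscle and most tissues, measured 8564 ± 5846 in tumours (SD, n = 5) and 56573 ± 8406 in muscle (SD, n = 4), a log2 fold change of −2.96. Tumour 5 was the highest tumour for Aldoa, at 31.9% of the muscle mean. Tpi1, triose phosphate isomerase, had a log2 fold change of −1.85, and Pgk1, phosphoglycerate kinase, and Pkm, pyruvate kinase of muscle and tumours, each one of −1.54. The adjusted p of these 4 genes ran up to 0.00197 (limma). With quantile normalization the values were −1.20 for Tpi1, −0.89 for Pgk1 and −0.91 for Pkm. The Pkm probe set cannot assign its signal to the splice forms of the gene here.

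Of 4 regulators of phosphofructokinase tested, 3 were called lower in tumours, beside 17.9% of all genes tested. Pfkfb3 and Pfkfb4 encode enzymes that make its activator fructose 2,6-bisphosphate. Pfkfb3 had a log2 fold change of −2.71 (adjusted p = 0.00132, limma), with 2 of 5 tumours below the floor. Its second probe set (1456676_a_at) gave −1.87 with overlapping groups (adjusted p = 0.0238, limma over probe sets). Pfkfb4 had a log2 fold change of −2.28 (adjusted p = 0.00047, limma). Tigar, which lowers the same activator, had a log2 fold change of −1.23 by its brightest probe set, with overlapping groups (adjusted p = 0.0314, limma). That call ended without muscle 1, 3 or 4 or tumour 3, 4 or 5, with adjusted p up to 0.0883, and its other probe sets gave −2.68 and −2.94. Pfkfb2, with 0.53 (adjusted p = 0.105), was not called.

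The one list gene that rose was Eno2, the neuronal enolase. It was at 70.8, 70.2, 69.8 and 76.8 in muscles 1 to 4, below the floor on each array, and at 487, 291, 456, 893 and 861 in tumours 1 to 5. Every tumour was above the floor, which makes Eno2 at least 5.35-fold higher in tumours. Eno2 passed the floor filter through the tumours alone. Its limma result (adjusted p = 8.3e-05) rests on muscle values under the floor and adds no support to this bound. Ldhb, the partner of Ldha in lactate dehydrogenase tetramers, had a log2 fold change of −0.10 (95% interval −0.81 to 0.61, adjusted p = 0.816), or 0.28 without muscle 2 (adjusted p = 0.272). Hk3, Bpgm, Ldhd and Adpgk were not called, with log2 fold changes from −0.59 to −0.04.

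**Figure D4:**
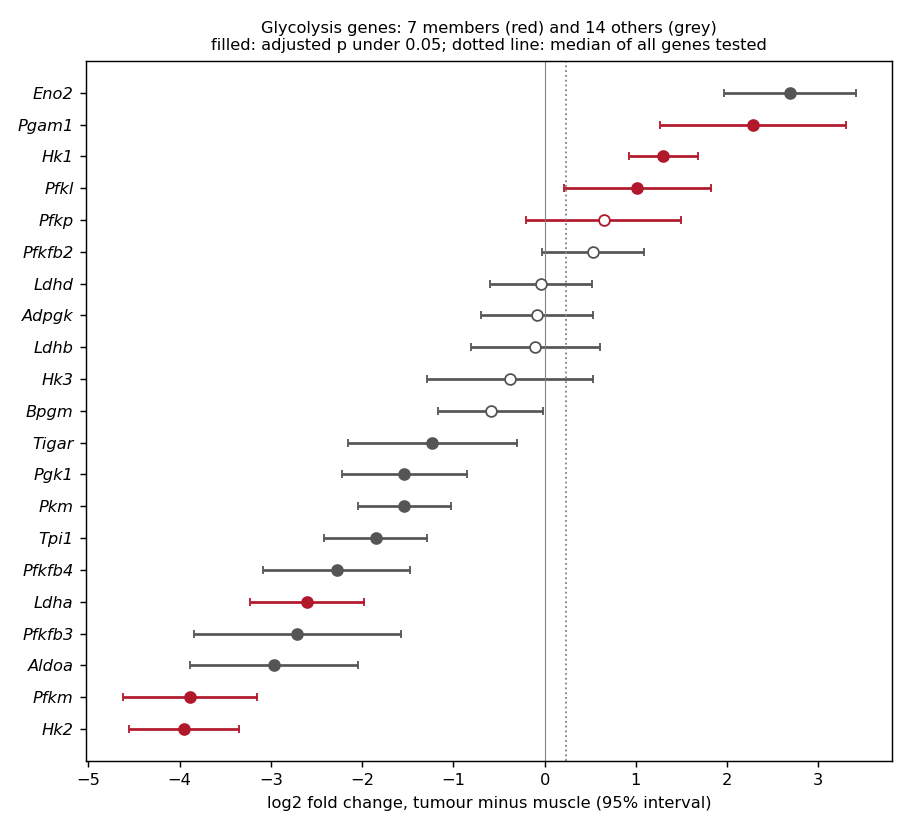
Log2 fold change, tumour minus muscle, with its 95% interval, for the 7 members (red) and 14 other glycolysis genes (grey), filled where the limma adjusted p was under 0.05. Eno2, Pgam1, Hk1 and Pfkl (called) and Pfkp and Pfkfb2 (not called) lie to the right of the median of all genes (dotted, 0.23), and Hk2 and Pfkm lie farthest to the left.

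The genes whose pattern over the 9 arrays was most like that of a member were found by the root mean square difference of centred log2 levels. For Pfkm they were Cacnb1, a calcium channel subunit of muscle, Clic5, and Synm, an intermediate filament protein of muscle, at differences of 0.19, 0.20 and 0.21 against a median of 2.16 over 10643 genes. For Hk1 they were St6gal1, a sialyltransferase, Meaf6 and Pi4ka, a lipid kinase, at 0.12, 0.13 and 0.14 against a median of 0.784. For Pfkp they were Sparc, a matrix glycoprotein, Ppcs, an enzyme of coenzyme A synthesis, and Ddhd2, at 0.22, 0.25 and 0.28. The median difference from Pfkp was 0.866. These are descriptions over 9 arrays that share the 2 tissues.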

How the data were processed

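RNA of 5 tumours and 4 muscles was measured on 1 array each. MAS5 was used by the authors, per the submitters' processing notes, with version, scaling target and background step not given in the sources used here. The deposited values are probe set intensities on a linear scale, for 30508 probe sets. The trimmed means (2% at each end) differed 1.42-fold between arrays, so arrays were scaled to their mean, with factors from 0.909 to 1.29. The 7 control probe sets and those with several symbols (496) or none (4424) were left out. Among several probe sets, that of highest mean log2(scaled value + 16) stood for the gene. Tumour and muscle were tested in R 4.3.3 with limma 3.58.1 (intensity trend, two-sided, Benjamini-Hochberg over 10650 genes, called at adjusted p under 0.05), and pairs with an exact permutation test in SciPy 1.17.1. Symbols are those of GEO's platform annotation, and gene positions and upstream sequences are from RefSeq. Only the limma fit, not the permutation test, was run on simulated data. These had independent noise and few changed genes, unlike the real arrays, where 48.0% of genes were called. Precision is limited by the number of arrays, and no detection calls were held.

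The members and lists were chosen with earlier results of these data known. Named genes were all members and their probe sets, the genes of the glycolysis list, Ss18, Myf5, the markers of the cell type lists, and the 3 genes most like Pfkm, Hk1 and Pfkp. Pairs with Eno1, Eno3 or Pgam2 were planned but not formed. Of the other marker lists, 1 of 3 macrophage markers tested was higher in tumours, 1 of 5 endothelial markers was lower, and the 1 red cell marker tested was lower. Over all genes tested, 30.1% were higher and 17.9% lower. Alternatives were other scalings, pseudocounts, filters, probe set choices and fits, the CC17 pair averaged, and arrays left out.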

Additional observations from a re-analysis of the deposited data

Results flagged for a closer look

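In 48 groups of 4 or 5 arrays, 5 held an array far from the others of its group, with a gap that took most of the whole range, where chance gives about 5% of groups. Of these, 4 were muscle 2, the intercostal sample. Its Pfkm log2 level stood below the limb muscles by 0.953 of the range, and Pfkm over Pfkl by 0.852. The same held for Pfkfb4 (0.887 of the range), at 781 against 2640 to 3078 scaled intensity, and for Tigar (0.843), at 715 against 1628 to 1894. Muscle 2 also held the highest sums of slow fibre and adipocyte markers among the muscles, and their part was not tested. Eno2 in muscle 4 was set apart by 0.840 of a range that lay wholly below the floor.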

How the results depend on the processing

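Hk2 and Pfkm kept their direction and call under all 25 alternatives, and Ldha and Pgam1 under all 24 that gave a value. Over these, log2 fold changes ran from −4.17 to −3.68, −4.30 to −3.56, −2.80 to −2.06 and 1.89 to 2.84 in turn. Hk1 kept its call in 23 of 24, and was 1.02 (adjusted p = 0.103) with the second brightest probe set. Pfkl kept its call in 12 of 25. It was 0.88 on values as deposited, 0.82 with median centring, 0.85 with quantile normalization, 0.49 as the mean of all probe sets, 0.63 with the second brightest and 1.07 without tumours 1 and 5, and −0.18 with only probe sets ending in _at, the one sign change. With 1 array left out it ran from 0.83 to 1.36. Pfkp was called in 2 of 24, at 1.06 with array weights and 1.01 without muscle 2, and ran from 0.43 to 1.01 with 1 array left out. The isoform pair differences kept their sign in every alternative run. Without tumours 1 and 5 they were −5.45 for Hk2 over Hk1, −5.37 for Pfkm over Pfkl and −4.87 for Pfkm over Pfkp, at an exact p = 0.0571, the smallest that 3 against 4 arrays allow. The list gene count higher was 0 with only probe sets ending in _at, where Eno2 has none, 2 with array weights, and 1 to 2 with 1 array left out. Genes near 0 changed sign without a call. Ldhb was 0.15 with quantile normalization, 0.17 with ribosomal and proteasome centring and 0.13 with array weights, and ran from −0.29 to 0.28 with 1 array left out. Ldhd was 0.22 with that centring, 0.14 with array weights and 0.025 with the CC17 pair averaged, and ran from −0.19 to 0.084. Adpgk was 0.18 with that centring and ran from −0.24 to 0.053. The cause was not tested in any of these. The CC17 pair as a random block was not run, because 1 pair gives no estimate of the correlation. No paired analysis was possible because the labels give the 2 groups no shared replicate numbers. Values near the floor limit the dim probe sets of Hk1, Pfkl and Pfkp and Eno2 in muscle.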
